A study of Homo sapiens with 8 samples.

Results

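This report describes 48 genes whose proteins carry a cell through mitosis, measured in Huh7 cells with less or more of the RNA helicase UPF1. They were chosen by symbol as genes of mitotic entry, the kinetochore, the spindle, the spindle checkpoint, anaphase and cytokinesis, and all 48 were found among the 17076 genes of the deposited tables. Huh7 is a cell line established from a human liver cancer, a hepatocellular carcinoma. RNA-seq was performed in 4 groups of 2 libraries: cells given a scrambled siRNA (siControl), cells given an siRNA against UPF1 (siUPF1), cells given a control vector named MYC (MYC), and cells given a vector for overexpression of MYC-UPF1 (MYC-UPF1). In the constructs of the paper MYC is the myc tag, so the name does not stand for the MYC gene. No library is shared between the depletion and the overexpression experiment, and each has its own control. Every mean and error below rests on 2 libraries per group. The expression of UPF1 comes from a transfected vector in a line in culture, and neither the time after transfection nor the siRNA used for the sequenced cells is given in the sources used here.

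Mitosis is driven by CDK1 bound to A- and B-type cyclins. The kinase is switched on by CDC25 phosphatases and helped by the Aurora and Polo kinases. Kinetochores, built on the centromere, then hold each chromosome to spindle microtubules, and the spindle assembly checkpoint delays anaphase until all are attached. The anaphase-promoting complex, with CDC20 and UBE2C, finally marks cyclin B1 and securin for destruction. Most of these genes are transcribed in late G2 and mitosis, and their mRNA in a bulk sample reflects the share of dividing cells as well as the level in each. In such samples, fewer dividing cells and less mRNA per dividing cell cannot be told apart. UPF1 itself is needed for nonsense-mediated mRNA decay and other decay pathways, and the question of the study was how its level bears on the growth of liver cancer cells.

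The unit throughout is FPKM, fragments scaled to transcript length and to the mapped fragments of the library, so levels can be set between genes. Between libraries no further scaling was applied in the main comparisons, and counts of called genes changed with other scalings, as given below. The number of reads per library, and with it the counting error, is unknown. The members' transcripts are each a small part of the libraries, which had summed FPKM values of 403902 to 455592. UPF1 was at 44.5 and 47.4 FPKM in siControl, 20.7 and 21.9 in siUPF1, 45.2 and 57.4 in MYC, and 2835 and 2484 in MYC-UPF1. The hepatocyte markers fixed for a check of the line, 9 of 9 in the tables, summed to between 20240 and 23680 FPKM. Of the markers of other cell types, LYZ was at 160 to 227 FPKM, PECAM1 at 0.535 to 0.796 and COL3A1 at 0.331 to 0.468, and the other 7 were not found in the tables.

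A feature that the choice of members did not use is the sequence before their start sites. Many genes of late cell cycle carry 2 short elements there: the cell cycle genes homology region, with the core TTTGAA, which is read by complexes built on MuvB, and CCAAT, which is bound by NF-Y. Both were searched on either strand in RefSeq promoter windows of GRCh38.p14, from 250 bases before to 50 bases after each start site. The 2 motifs can share at most an end base. Windows were given for 41 of the 48 members, 52 windows in all. TTTGAA was present in 33 of the 52 windows (63.5%), against 11.2% of the 16673 windows of all genes in the tables and 15.2% of all 35116 windows. CCAAT was present in 41 windows (78.8%, against 35% for genes in the tables), and both motifs in 28 (53.8%, against 4.51%). In 18 members, TTTGAA began between 70 and 7 bases before a start site. This position was not counted for other genes, so the number is not read as a trait of the members.

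Shown here are 6 of these stretches, to let a reader see the shared core in members of different roles. HMMR and INCENP are among the members described below for their difference after depletion, and PLK1, CCNB2, CDC20 and MKI67 stand for the mitotic kinases, the cyclins, anaphase and proliferation. No window was given for CENPM, and that of CCNA2 held CCAAT. Each stretch has 30 bases and was located by a single exact match on the same chromosome of GRCh37. The INCENP stretch is at chr11:61891453-61891482 on the plus strand, and 13 of its bases lie in exonic sequence of GENCODE release 44. The HMMR stretch is at chr5:162887604-162887633 on the plus strand, inside an exon of 1 of 8 annotated transcripts. The PLK1 stretch is at chr16:23690169-23690198 on the plus strand, inside exons of 2 of 9 transcripts. The CCNB2 stretch is at chr15:59397304-59397333 on the plus strand, with 9 bases in an exon. Those of CDC20 (chr1:43824575-43824604, plus strand) and MKI67 (chr10:129924699-129924728, minus strand) lie upstream of the annotated genes. TTTGAA begins 10 bases before the RefSeq start site in INCENP, 22 in HMMR, 65 in CDC20, and 29 in each of PLK1, CCNB2 and MKI67. The sequences are written 5′ to 3′ on the strand of the gene, with TTTGAA in capitals.
INCENP: ggattggctgagccttcagtTTTGAAaatc
HMMR: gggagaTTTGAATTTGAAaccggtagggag
PLK1: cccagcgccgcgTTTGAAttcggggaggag
CCNB2: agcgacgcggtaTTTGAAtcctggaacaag
CDC20: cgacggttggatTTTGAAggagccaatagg
MKI67: tcttcgttttcgTTTGAAttgggcgggcgc

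In HMMR the core stands 2 times in a row, in CDC20 the stretch also holds CCAAT, and in INCENP and MKI67 it holds ATTGG, which is CCAAT on the other strand. The motifs were not particular to the 48 members. In a wider list of other mitosis genes, TTTGAA was in 45 of 139 windows (32.4%), CCAAT in 67 (48.2%) and both in 23 (16.5%). In windows of DNA replication genes, TTTGAA was in 1 of 48 (2.08%) and CCAAT in 28 (58.3%), and in those of G1 cyclins and regulators TTTGAA was in 1 of 18 (5.56%) and CCAAT in 7 (38.9%). These are matches of letters and not measured binding. Members with both motifs in 1 window (25 genes) had a median log2 fold change of -0.090 after depletion and 0.013 after overexpression, and the 16 other members with a window had -0.052 and 0.013.

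The mitosis genes were well expressed in all libraries. Every member lay above the median gene of each library, with the lowest at percentile 51.9. In siControl, the median of the 48 means was 24.7 FPKM, 10 members had a mean of at least 50 FPKM and 4 had less than 10. Genes of anaphase stood at the top, except ESPL1, which was at rank 44 of the 48 with a mean of 10.4 FPKM. PTTG1, which encodes securin, had 126 and 133 FPKM, above CDC20 (115 and 123) and UBE2C (111 and 120). UBE2C is the ubiquitin-conjugating enzyme of the anaphase-promoting complex. CDC20 and UBE2C overlapped in their libraries and cannot be ordered. TOP2A, the topoisomerase that untangles sister chromatids, and TPX2, a spindle assembly factor, came next with overlapping values of 82.8 to 91.6 FPKM. At the bottom were CDC25C, the centromeric histone CENPA, the kinetochore motor CENPE and the checkpoint gene MAD2L1, with means of 8.27, 7.08, 6.99 and 6.49 FPKM. Of the 47 pairs of neighbors in this order, 28 had overlapping libraries.

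**Figure D1:**
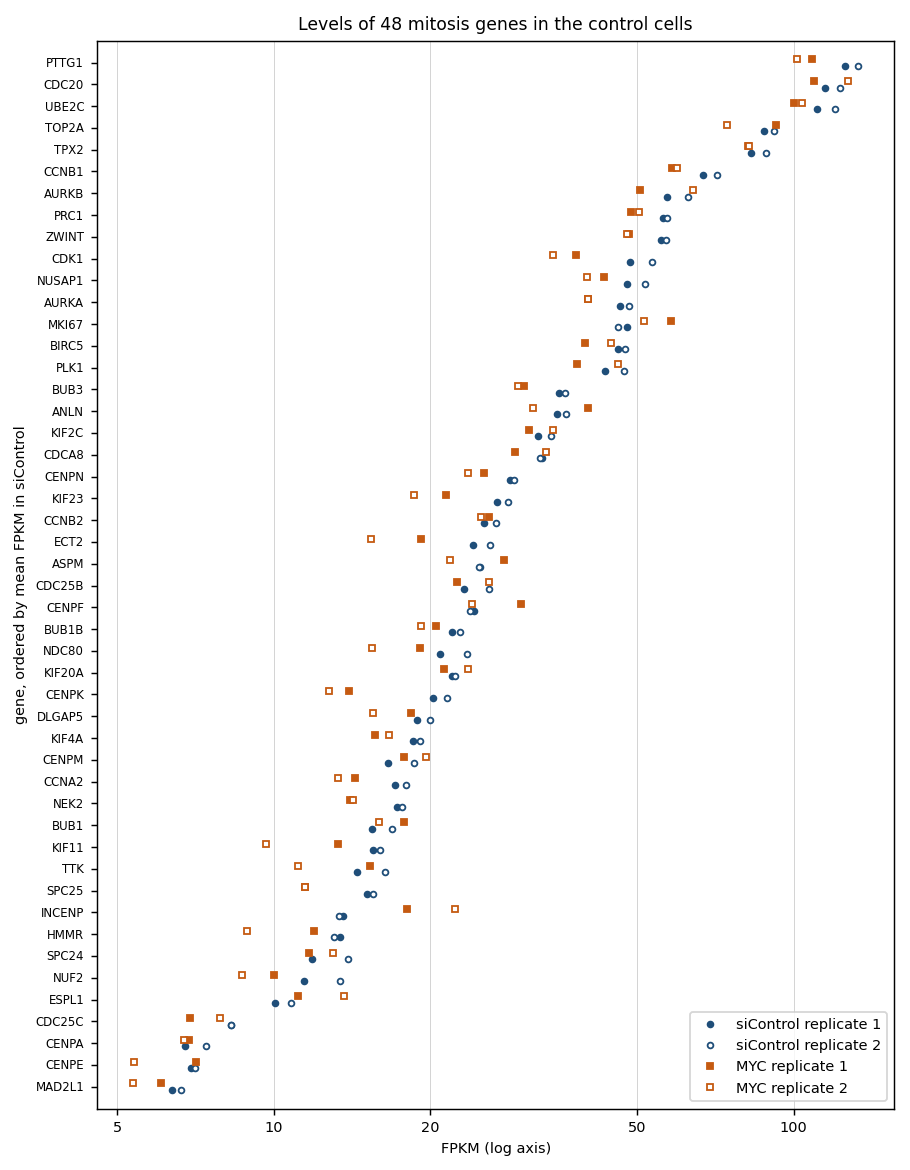
FPKM of each of the 48 mitosis genes (log axis) in the 2 siControl libraries (circles) and the 2 MYC libraries (squares), ordered by the siControl mean. PTTG1, CDC20 and UBE2C lie above 100 FPKM in all 4 libraries, and CENPA, CENPE and MAD2L1 lie below 8.

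The order was nearly the same in the MYC control, with a Spearman correlation of 0.968 between the 2 groups of means across the 48 genes, which are not independent replicates. The levels of the members in MYC were lower than in siControl by a median of 0.18 on the log2 scale, and those of all genes by 0.069. CENPK, part of the inner kinetochore, differed most in that direction (20.2 and 21.5 FPKM in siControl, 13.9 and 12.8 in MYC). INCENP differed most in the other (13.6 and 13.4 against 18.1 and 22.3). These 2 groups come from separate experiments and tables, and no test was made between them. The share of the summed FPKM that fell to the members was between 0.332% and 0.406% in the 8 libraries, with both ends of this range in treated libraries, MYC-UPF1 replicate 1 and siUPF1 replicate 2.

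To ask how UPF1 depletion bears on mitosis genes, siUPF1 was compared with siControl with limma on log2(FPKM + 1). Only 4 of the 48 members passed an unadjusted p of 0.05, the threshold of the study, and none passed an adjusted p of 0.05. INCENP and CENPM were higher in siUPF1, and CCNA2 and HMMR were lower. Their share of 8.33% compares with 21.5% of all 13535 genes tested, of which 16% were higher and 5.51% were lower. At an adjusted p of 0.05, 0.0369% of all genes passed. The members' log2 fold changes ran from -0.31 (CDK1) to 0.37 (INCENP), with 29 below 0 and 19 above. Their median was -0.069, and that of all genes was 0.057. The 95% interval lay within a 1.5-fold change in either direction for 46 members and within a 2-fold change for all 48. The labels do not say that the libraries of a group come from separate cultures, so the p-values measure only the spread between these libraries, which may be technical.

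**Figure D2:**
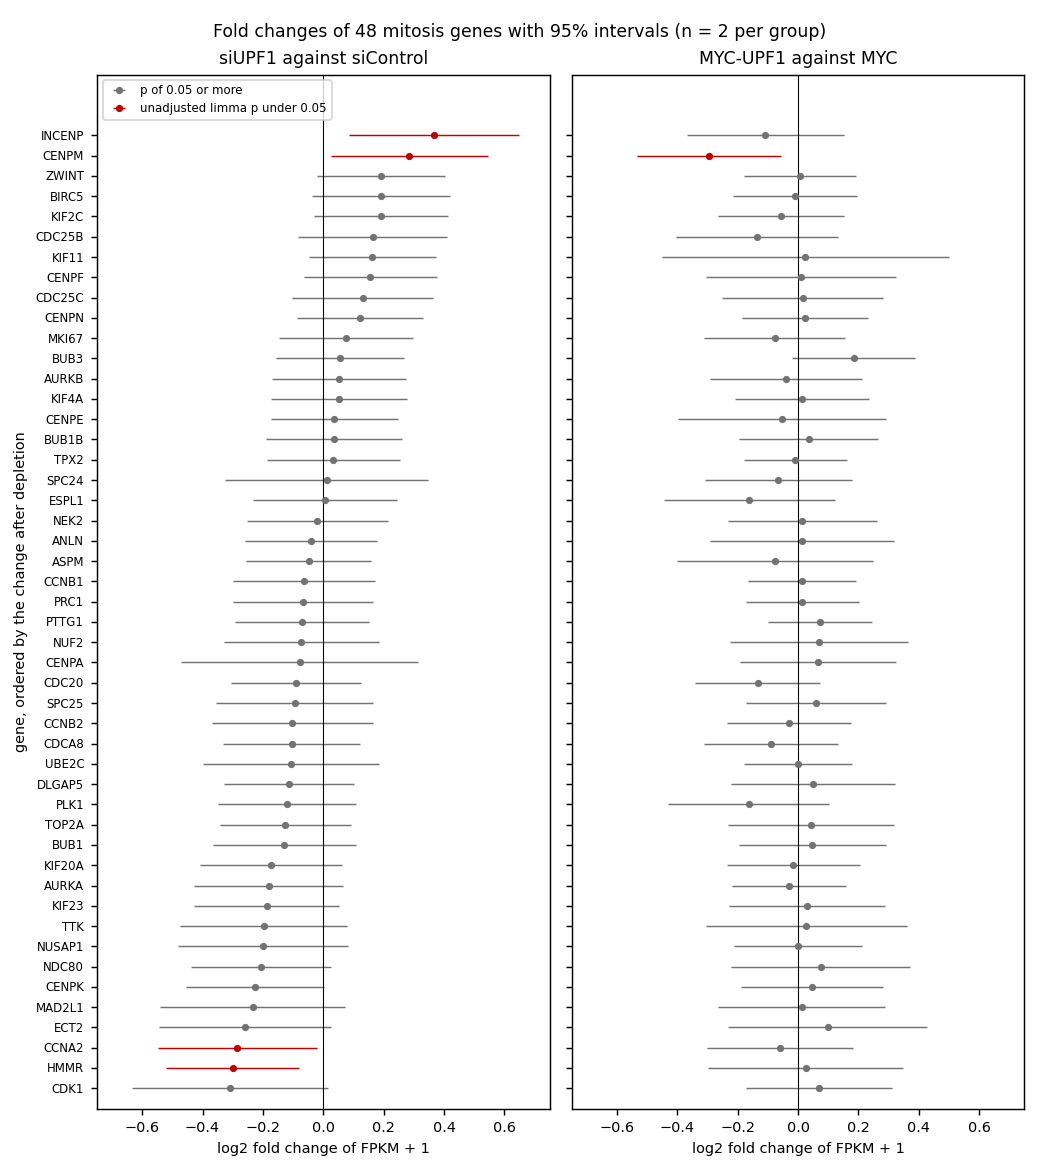
Log2 fold change of FPKM + 1 with its 95% interval (limma) for the 48 genes, ordered by the change after depletion, in siUPF1 against siControl (left) and MYC-UPF1 against MYC (right). Red marks an unadjusted p under 0.05, which 4 genes reached on the left and CENPM alone on the right.

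CCNA2, on chromosome 4 from 122737599 to 122745038 (GRCh37, minus strand), encodes cyclin A2, which partners CDK1 at mitotic entry. It was at 17.1 and 18.0 FPKM in siControl and 15.6 and 13.0 in siUPF1. Both treated libraries lay below both controls, although siUPF1 replicate 2 was farther from them than replicate 1. The log2 fold change was -0.29 ± 0.111 (SE, limma adjusted p = 0.210). Without siUPF1 replicate 2 it was -0.16 and did not pass.

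HMMR, on chromosome 5 from 162887209 to 162918947 (plus strand), encodes a microtubule-binding protein of the spindle poles. It was at 13.4 and 13.1 FPKM in siControl and 11.04 and 10.1 in siUPF1. The libraries of each group lay close together and the groups did not overlap. The log2 fold change was -0.30 ± 0.0932 (SE, limma adjusted p = 0.151). It did not pass the unadjusted threshold when siControl replicate 1 or siControl replicate 2 was left out.

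INCENP, on chromosome 11 from 61891470 to 61920641 (plus strand), encodes the scaffold of the chromosomal passenger complex, which carries Aurora B to the centromere and the midzone. It was at 13.6 and 13.4 FPKM in siControl and 15.8 and 19.7 in siUPF1. The treated libraries differed from each other by more than replicate 1 differed from the controls. The log2 fold change was 0.37 ± 0.119 (SE, limma adjusted p = 0.162), and it was 0.22 without siUPF1 replicate 2.

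CENPM, on chromosome 22 from 42334741 to 42343156 (minus strand), encodes a subunit of the inner kinetochore network on the centromere. It was at 16.6 and 18.6 FPKM in siControl and 20.2 and 23.2 in siUPF1. The groups did not overlap, with a gap smaller than the spread within each. The log2 fold change was 0.28 ± 0.110 (SE, limma adjusted p = 0.208), and it was 0.19 without siUPF1 replicate 2, which did not pass. With each library left out in turn, the log2 fold change ran from -0.41 to -0.16 for CCNA2 and from -0.36 to -0.24 for HMMR. It ran from 0.22 to 0.52 for INCENP and from 0.19 to 0.38 for CENPM. Like HMMR, the genes CCNA2, INCENP and CENPM did not pass with either siControl library left out.

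**Figure D3:**
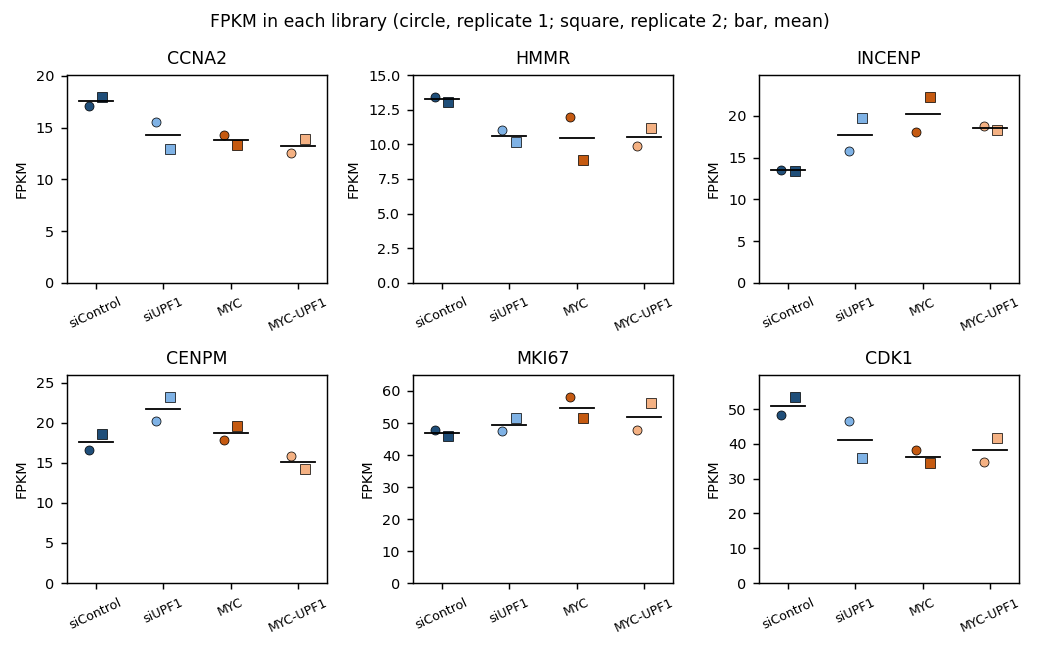
FPKM of CCNA2, HMMR, INCENP, CENPM, MKI67 and CDK1 in each of the 8 libraries (circle, replicate 1; square, replicate 2; bar, mean of the 2). INCENP and CENPM lie higher in siUPF1 than in siControl and CCNA2, HMMR and CDK1 lower, while the MKI67 libraries of siUPF1 (47.5 and 51.5) overlap those of siControl (47.9 and 45.9).

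The number of members called rested on single libraries and on the scaling. Without siUPF1 replicate 1, 7 members were higher and 15 lower, while 27.2% of all genes were higher and 16.5% lower at the unadjusted threshold. Without siUPF1 replicate 2 the counts were 2 and 2, with CDC25C and INCENP higher and HMMR and NDC80 lower (16.5% and 5.28% of all genes). Quantile normalization gave 2 higher and 7 lower members (10.5% and 10.4% of all genes), and centring each library on its median gave 1 and 9 (11.8% and 9.39%). Under both, CDK1, CENPK, ECT2, KIF20A and NDC80 joined CCNA2 and HMMR among the lower members.

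Among the cyclins and their kinase, CCNA2 was the member past the threshold. CDK1, the kinase at the center of mitotic entry, had the lowest log2 fold change of all members, with 48.4 and 53.5 FPKM in siControl and 46.6 and 35.8 in siUPF1. Its groups did not overlap, but the 2 treated libraries differed widely and the change of -0.31 ± 0.137 (SE) did not pass the unadjusted threshold. CCNB1, which encodes cyclin B1 and was the highest member of this group, was at 67.1 and 71.2 FPKM in siControl and 69.9 and 62.5 in siUPF1, and its groups overlapped. The phosphatase genes CDC25B and CDC25C had log2 fold changes of 0.16 and 0.13.

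The counts by role are small and are to be read beside the 21.5% of all genes called (16% higher, 5.51% lower): with so few genes in a role, 0 or 1 call is near that share. The kinases of centrosome and spindle were 0 of 3 past the threshold. AURKA, which encodes Aurora A, was at 46.4 and 48.3 FPKM in siControl and 44.8 and 38.7 in siUPF1, without overlap. PLK1 and NEK2 had log2 fold changes of -0.12 and -0.019. In the chromosomal passenger complex, 1 of 4 passed, which was INCENP. The catalytic subunit AURKB was at 57.1 and 62.5 FPKM in siControl and 61.7 and 62.3 in siUPF1, so its groups overlapped. BIRC5, which encodes survivin, had a log2 fold change of 0.19 and CDCA8, which encodes borealin, -0.10. The 4 subunits of this complex thus lay on both sides of 0.

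None of the 5 genes of the spindle assembly checkpoint passed. BUB3, the highest of them, was at 35.4 and 36.4 FPKM in siControl and 36.4 and 38.2 in siUPF1, 2 pairs that all but touch. MAD2L1 had a log2 fold change of -0.23 and TTK, the kinase MPS1, of -0.20. In the inner kinetochore, 1 of 4 passed. CENPN, which binds the centromeric nucleosome, was at 28.4 and 28.9 FPKM in siControl and 31.0 and 31.6 in siUPF1, without overlap and with a log2 fold change of 0.12. CENPK was in the other direction at -0.23, which narrowly missed the threshold. The 7 genes of the outer kinetochore had no member past the threshold. ZWINT, the highest of these 7, was at 55.6 and 56.9 FPKM in siControl and 62.9 and 65.8 in siUPF1. In contrast, the 4 genes of the microtubule-binding NDC80 complex lay between -0.21 (NDC80) and 0.011 (SPC24).

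Of the 8 spindle motors and microtubule proteins, HMMR was past the threshold. TPX2 was at 82.8 and 88.6 FPKM in siControl and 85.4 and 90.0 in siUPF1, which overlap. The motors KIF11 and KIF2C had log2 fold changes of 0.16 and 0.19, and NUSAP1, which bundles spindle microtubules, of -0.20. The genes of midzone and cytokinesis were all below 0 (5 of 5, median -0.17), and 0 of 5 passed. The 3 kinases of centrosome and spindle were also all below 0, as were 29 of the 48 members. Of all genes tested, 60.9% were above 0. The 5 genes of midzone and cytokinesis all have a GC content under 50%. In those classes, which include these 5, 19 of 25 members (under 45%) and 6 of 11 (45% to 50%) were below 0. With the trend with GC content and length taken out, as described below, KIF20A was at -0.22, ECT2 at -0.17 and KIF23 at -0.16. PRC1 was then at -0.12 and ANLN at 0.022. The part of GC content was not tested beyond this removal. Before it, ECT2, which activates RhoA at the cleavage furrow, had the lowest log2 fold change of the 5, -0.26. PRC1, the microtubule bundler of the midzone, was at 56.1 and 57.2 FPKM in siControl and 57.2 and 51.0 in siUPF1. With each library left out in turn, its log2 fold change ran from -0.15 to 0.013.

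Anaphase genes gave 0 of 4 past the threshold. PTTG1 was at 126 and 133 FPKM in siControl and 119 and 127 in siUPF1, and CDC20 and UBE2C had log2 fold changes of -0.090 and -0.11. MKI67, which encodes the proliferation marker Ki-67, was at 47.9 and 45.9 FPKM in siControl and 47.5 and 51.5 in siUPF1, with a log2 fold change of 0.076 and a 95% interval of -0.15 to 0.30. TOP2A was at 87.9 and 91.6 FPKM in siControl and 84.9 and 79.5 in siUPF1, a log2 fold change of -0.13. The 2 genes lay on opposite sides of 0.

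**Figure D4:**
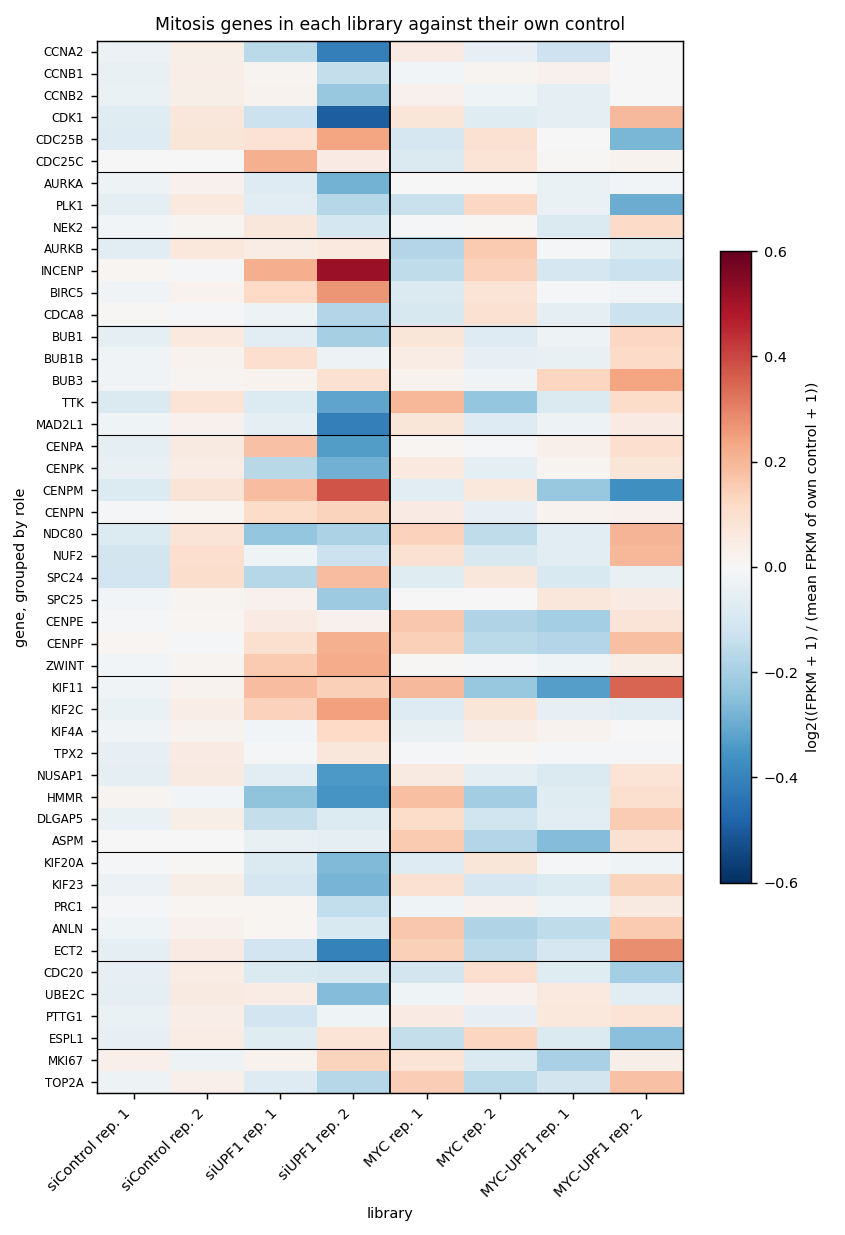
Log2 ratio of FPKM + 1 in each library to the mean of its own control, for the 48 genes in order of role. The column of siUPF1 replicate 2 holds the strongest colors, and in the 4 libraries of the overexpression experiment the 2 replicates of a group mostly have opposite colors.

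Counting libraries rather than p-values, 12 members had both siUPF1 libraries above both controls and 18 had both below. These 30 members are 62.5% of the list, and of all genes tested 56% did not overlap, with 37.5% above and 18.5% below. The median absolute difference between siUPF1 replicates was 0.14 on the log2 scale, that between siControl replicates 0.069, and that between the group means 0.12. The siControl replicates differed by more than the group means in 13 of the 48 members (27.1%, all genes 34%). The replicates of at least 1 of the groups did so in 29 members (60.4%, all genes 59.2%).

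Fold changes moved with the GC content of the transcript. Across the 48 members, the Spearman correlation of log2 fold change with GC content was 0.451 after depletion, and 0.542 across all genes with a GC value. Members had a median GC content of 43.9% (32.8% to 61.4%), and all genes one of 48%. Of the 25 members with GC content under 45%, 19 were below 0 (median -0.10, all genes of this class -0.054). Of the 12 members of 50% or more, 8 were above 0 (median 0.032, all genes of the class 0.17). The 2 higher members were among the most GC-rich, CENPM at 61.4% and INCENP at 58.8%, and HMMR, which was lower, had 36.3%.

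**Figure D5:**
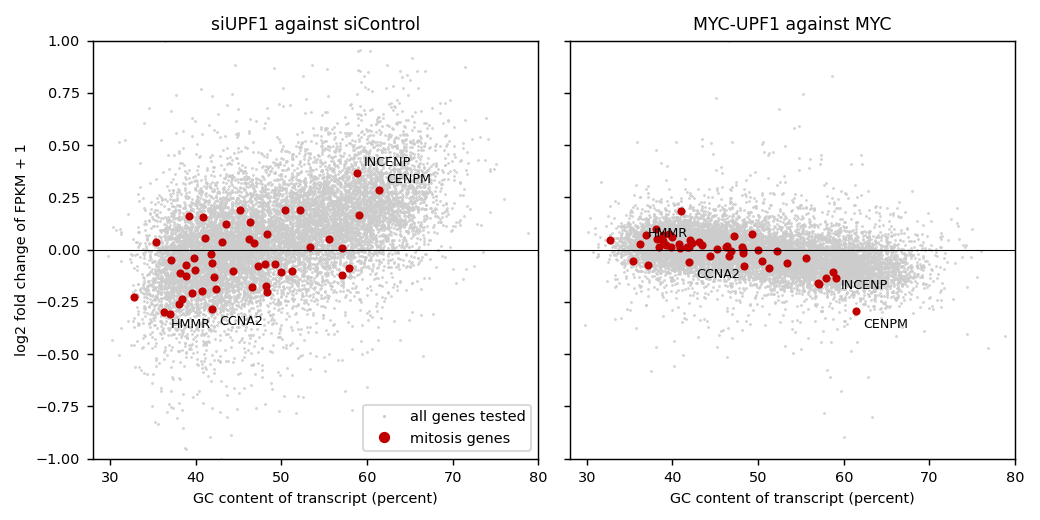
Log2 fold change of FPKM + 1 against transcript GC content (percent) for all genes tested (gray) and the 48 mitosis genes (red), with genes beyond 1 in either direction outside the axis. The gray and red points slope upward after depletion (left) and downward after overexpression (right), with INCENP and CENPM at the GC-rich end of both.

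When the trend with GC content and length was taken out of every library, 1 of the 4 called members, CCNA2, was called again. INCENP (0.16, limma adjusted p = 0.283), CENPM (0.10, limma adjusted p = 0.447) and HMMR (-0.17, limma adjusted p = 0.253) did not pass the unadjusted threshold. Over the settings tried, the limma adjusted p of INCENP ran from 9.06e-05 to 0.478, that of CENPM from 0.00444 to 0.771 and that of HMMR from 0.00677 to 0.655, with the lowest from the fit without siUPF1 replicate 1. CCNA2 was at -0.24. With GC content and length taken out, 10 members were lower and 2 were higher, ZWINT (0.21) and KIF11 (0.23), against 11.5% and 11.2% of all genes. The lower members were PLK1 (-0.28), CDC20 (-0.25), NUSAP1 (-0.25), CCNA2, KIF20A (-0.22), ESPL1, AURKA (-0.19), CDCA8, ECT2 and KIF23, and none passed the adjusted threshold. The part of GC content in the differences was not tested beyond this removal.

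UPF1 overexpression was compared in the same way, MYC-UPF1 against MYC. A single member, CENPM, passed the unadjusted threshold, 2.08% of the 48 against 1.43% of all 13251 genes (0.619% higher and 0.807% lower), and 0 passed the adjusted threshold, beside 0.00755% of all genes. CENPM was at 17.8 and 19.6 FPKM in MYC and 15.8 and 14.2 in MYC-UPF1. The groups did not overlap, and the log2 fold change was -0.30 ± 0.106 (SE). It did not pass without MYC replicate 2 (-0.23) or without MYC-UPF1 replicate 2 (-0.22). Log2 fold changes of the 48 ran from -0.30 to 0.18, their median was 0.012 (all genes -0.014), and every 95% interval lay within a 1.5-fold change. For these genes, changes of more than 1.5-fold thus lay outside the intervals.

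Members with the most expression in their role showed how little the groups differed. CCNB1 was at 58.3 and 59.7 FPKM in MYC and 60.2 and 59.0 in MYC-UPF1, and AURKA at 40.2 in both MYC libraries and 39.0 and 39.7 in MYC-UPF1. AURKB had 50.6 and 64.1 FPKM against 56.8 and 54.0, and CENPN 25.4 and 23.6 against 24.9 and 24.96. In both, the treated libraries lay between the controls. ZWINT was at 48.3 and 47.7 FPKM and then 47.1 and 49.3, TPX2 at 81.6 and 82.2 and then 81.6 and 81.2, and PRC1 at 48.7 and 50.5 and then 48.7 and 51.5. These pairs overlapped as well. PTTG1 was at 109 and 102 FPKM in MYC and 110 and 111 in MYC-UPF1, a narrow separation with a log2 fold change of 0.073. BUB3 had the highest log2 fold change, 0.18, which did not pass, with 30.4 and 29.5 FPKM in MYC and 32.8 and 35.5 in MYC-UPF1. With the GC and length trend removed it was at 0.17 and passed.

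INCENP, HMMR and CCNA2, called after depletion, did not pass here and had overlapping groups. INCENP had 18.1 and 22.3 FPKM in MYC and 18.8 and 18.3 in MYC-UPF1, HMMR had 11.96 and 8.90 against 9.88 and 11.2, and CCNA2 had 14.3 and 13.3 against 12.6 and 13.9. MKI67, whose protein the study stained in cells with UPF1 from a retrovirus, was at 58.1 and 51.5 FPKM in MYC and 47.7 and 56.1 in MYC-UPF1. Its libraries overlapped and the log2 fold change was -0.078, with a 95% interval of -0.31 to 0.16. TOP2A gave 92.5 and 74.4 FPKM in MYC and 77.3 and 94.4 in MYC-UPF1, so that the replicates of either group differed far more than the means.

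This replicate pattern was shared by the members. For 42 of the 48, the 2 MYC libraries differed from each other by more than the group means did (all genes 76.2%). In 44 of the 48 (91.7%, all genes 73%) the replicate with the higher value was the other one in MYC-UPF1 than in MYC, so that MYC replicate 1 went with MYC-UPF1 replicate 2. The median absolute difference between replicates was 0.15 in MYC and 0.13 in MYC-UPF1, and that between group means 0.044. KIF11, the motor that pushes spindle poles apart, had the widest spread, with 13.3 and 9.67 FPKM in MYC and 8.92 and 14.9 in MYC-UPF1. In MYC-UPF1, 4 members lay wholly higher (BUB3, CENPA, SPC25 and PTTG1) and 2 wholly lower (AURKA and CENPM), together 12.5% of the list. Of all genes, 8.88% lay wholly higher and 11.8% wholly lower, 20.7% in all. The number of higher members is thus near the share of all genes.

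GC content ran the other way in this experiment. The Spearman correlation with the log2 fold change was -0.644 across the 48 members and -0.432 across all genes. All 12 members with a GC content of 50% or more were below 0 (median -0.099, all genes of the class -0.059), and 21 of the 25 members under 45% were above 0. With the trend removed, CENPM was the 1 lower member (-0.26) and BUB3 the 1 higher, beside 1.7% and 1.62% of all genes.

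Whether the members responded differently to depletion and overexpression was tested as the difference between both log2 fold changes over all 8 libraries. In this test 2 members passed the unadjusted threshold, 4.17% against 15.2% of all 13412 genes (11.8% higher and 3.4% lower), and 0 the adjusted threshold, beside 0.0224% of all genes. CENPM had a difference of 0.58 (limma adjusted p = 0.182), the sum of a higher level after depletion and a lower level after overexpression. INCENP had a difference of 0.48 (limma adjusted p = 0.259). That of CDK1 was -0.38 and did not pass. With the GC and length trend removed, CENPM passed at 0.36, ZWINT at 0.23 and KIF20A at -0.20, and INCENP at 0.21 did not (8.11% of all genes higher and 7.77% lower). Signs of the log2 fold changes after depletion and overexpression were opposite in 30 of the 48 members, and in 60.6% of all genes tested in both.

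Other genes of the same processes were read from a wider list of 112 that held further kinetochore, checkpoint, anaphase-promoting complex, condensin, cohesin, spindle and G2/M genes. After depletion 5 of these were higher and 10 lower at the unadjusted threshold, a share of 13.4% beside the 21.5% of all genes. By direction, the share of higher genes was under the 16% of all genes and that of lower genes above their 5.51%. After overexpression 0 of 112 passed, beside 1.43% of all genes. KPNA2, an importin that also regulates TPX2, was at 224 and 236 FPKM in siControl and 167 and 151 in siUPF1. Its log2 fold change of -0.53 was the largest in size of the list (limma adjusted p = 0.0793). MASTL, the Greatwall kinase that holds back a phosphatase opposing CDK1, was at 10.4 and 11.2 FPKM and then 7.91 and 7.03, which is -0.48 on the log2 scale (limma adjusted p = 0.0835). The cohesin regulator PDS5A, also among the 5 genes of lowest p, had -0.40. In the other direction, the condensin subunit SMC2 had 0.36 and CKS1B, a small CDK-binding protein, 0.34. SMC2 did not pass without siControl replicate 2 (0.33) and CKS1B without either siControl library (0.30 and 0.38).

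Genes of the earlier cell cycle were set beside the mitosis genes. Of all genes tested, 16% were higher and 5.51% lower after depletion, 21.5% in all, and 1.43% passed after overexpression. Of 44 DNA replication genes, 2 were higher and 2 lower after depletion (9.09%), and 0 passed after overexpression. Of 16 G1 cyclins and regulators found, 5 were higher (CCND1, CCNE1, E2F2, CDKN1C and CDKN2D) and 1 lower (CDK6) after depletion, 37.5% of the list, and 0 passed after overexpression. These lists were not tested against each other.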

How the data were processed

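RNA-seq libraries of Huh7 cells, 2 per group, were prepared by the authors with a stranded mRNA kit, aligned to hg19 with HISAT2 2.1.0 and assembled with StringTie 1.3.4d. The authors deposited FPKM per gene and library, and how the 17076 genes were chosen is not given in the sources used here. Single-library and whole-series tables held the same values.

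log2(FPKM + 1) was fitted with limma 3.58.1 (R 4.3.3, lmFit and eBayes with trend) where the mean FPKM of a gene reached 0.5, and p-values were adjusted by Benjamini-Hochberg over all genes tested. A fold change on this scale understates that of low genes. With 2 against 2, an exact permutation test cannot go below 0.333 (two-sided). GC content and length came from GENCODE release 44 (15741 genes matched), and their trend was removed by loess (span 0.5). Python 3.11.15, pandas 2.3.3 and matplotlib 3.10.9 were used.

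Members, lists and alternatives were chosen with earlier results of these data known. Values in every library were given for members called at the unadjusted threshold, the highest member of each role and MKI67, and the 5 genes of lowest p were named from the wider list. CDK1, KIF11 and other members were described after their values were seen. Alternatives were a pseudocount of 0.1, no minimum or one of 5 FPKM, quantile normalization, median centring, all 8 libraries in 1 fit, a replicate block, no variance trend, the GC and length removal alone and with the block, a fold change of 1.2, and leaving out each library.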

Additional observations from a re-analysis of the deposited data

Results flagged for a closer look

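The effects of depletion and overexpression differed in the test of their difference for 2 members. For CENPM, the log2 fold change after depletion minus that after overexpression was 0.58 (past an unadjusted limma p of 0.05, adjusted p = 0.182), with both siUPF1 libraries above both siControl libraries and both MYC-UPF1 libraries below both MYC libraries. It stayed past the unadjusted threshold with each of the 8 libraries left out, at 0.49 to 0.68. For INCENP the difference was 0.48 (past an unadjusted limma p of 0.05, adjusted p = 0.259), and only the depletion groups were apart. It did not pass without siUPF1 replicate 2 (0.32), MYC replicate 2 (0.33), siControl replicate 2 (0.46) or MYC-UPF1 replicate 2 (0.46). Neither passed the adjusted threshold. Both genes have GC-rich transcripts, 61.4% and 58.8%, and the differences across all genes with a GC value had a Spearman correlation of 0.605 with GC content. With that trend removed they were 0.36 and 0.21.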

How the results depend on the processing

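No member past the unadjusted threshold as reported changed its sign under an alternative. With GC removal after depletion, ESPL1 went from 0.0065 to -0.19 and passed, CDC25B, higher without siUPF1 replicate 1, was at -0.033, and CENPK, lower with quantile normalization, at 0.0025. The members' medians after overexpression and for the difference changed sign with libraries left out, and the former with GC removal (-0.0054). Of counts and medians, 170 stayed close and 82 moved. After depletion, 2 higher members became 1 with median centring, and 2 lower members became 7 with quantile normalization, 9 with median centring, 4 with all 8 libraries in 1 fit, 10 with GC and length removed and 8 with that and the replicate block. The 5 higher genes of the wider list became 8 with the GC trend removed and 2 at a fold change of at least 1.2. Its 10 lower genes became 26, 23, 24 and 20 with quantile normalization, median centring, GC removal, and GC removal with the block. Of all genes, 5.51% were lower as reported, and 10.4%, 9.39% and 11.5% with the first 3 of these settings. After overexpression, 0 higher members and 0 higher wider genes became 1 each with quantile normalization and with GC removal, alone or with the block. For the difference between effects, 0 lower members became 2 with quantile normalization, 2 with median centring and 1 with GC removal. The wider list's 5 higher genes became 2, 3, 2 and 3 with quantile normalization, median centring, the block, and the block with GC removal, and its 4 lower genes 15, 16, 19 and 10 with quantile normalization, median centring, GC removal, and GC removal with the block. The members' median difference of -0.063 was -0.13 with quantile normalization. Where no share of all genes is given here or above for a setting, its counts are not read as results about the lists. The causes were not tested.

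Replicate numbers did not pair the samples (correlation of deviations -0.13 for depletion and -0.57 for overexpression). With the replicate block, 1 lower member remained after depletion and 0 after overexpression. The crossed pairing, chosen after seeing the data, gave 5 lower members in each comparison and in the difference. It gave 1 higher member and 1 higher wider gene after overexpression, and 4 lower wider genes after overexpression and 17 in the difference. Neither pairing changed the members' median log2 fold changes. The share of all genes called under either pairing is not given here, so these counts are not read as results about the members.

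Leaving out each library gave 0 to 7 higher and 0 to 15 lower members after depletion, 1 to 20 and 4 to 32 wider genes, and a members' median of -0.10 to -0.0099. After overexpression it gave 0 to 1 higher and 0 to 3 lower in both lists and a median of -0.054 to 0.048. For the difference it gave 1 to 3 higher and 0 to 7 lower members, 0 to 11 and 2 to 18 wider genes, and a median of -0.13 to 0.0031. A lone library is assumed there to vary like the others. Without the read number, counting error at levels as low as those of MAD2L1 and CENPE cannot be set apart from replicate spread.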
